A study of Mus musculus with 12 samples.

Results

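The chemokine genes described here are *Ccl3*, *Ccl4*, *Ccl5* and *Xcl1*, the chemokines that *i*NKT and NK cells are best known to make. They were chosen by name, as the rows of the deposited tables with these symbols, which gives 4 of 48709 names. The rule uses no measured value, though the genes were picked with earlier results of these data known. Invariant natural killer T (*i*NKT) cells, T cells with an invariant TCR for lipids on CD1d, were sorted from thymus in 12 libraries, 3 for each of 4 groups, and their RNA was sequenced. The groups were miR-155KI NK1.1+, WT NK1.1+, miR-155KI NK1.1- and WT NK1.1- *i*NKT cells, all labelled C57BL/6J and 7 weeks old. miR-155KI mice had 2 copies of a Rosa26 miR-155 knock-in allele and CD4Cre, which acts in all T cells that pass through the CD4-expressing stage and not in *i*NKT cells alone. The mice called WT were CD4Cre- littermates that also had the knock-in allele, so both genotypes share it and differ in Cre. Cells of both genotypes were depleted of CD8+ cells and sorted with CD1d tetramer and antibodies to TCRβ, NK1.1 and CD44. The comparisons ask how much chemokine RNA the cells held when miR-155 was over-expressed, in each pool, and how the NK1.1+ and NK1.1- pools differed in it.

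Chemokines are small secreted proteins that guide leukocytes through G protein-coupled receptors. XCL1 (lymphotactin) binds XCR1, a receptor of cross-presenting dendritic cells, and in the thymus XCL1 is known for placing dendritic cells in the medulla. CCL3, CCL4 and CCL5 (MIP-1α, MIP-1β and RANTES) draw T cells, monocytes and NK cells. Effector lymphocytes such as NK cells and *i*NKT1 cells, the T-bet-high *i*NKT cells that make up most of the NK1.1+ pool, hold RNA of these genes before they are stimulated, and their transcription rises further on TCR or cytokine signals.

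In GRCm38, *Xcl1* (ENSMUSG00000026573.7) lies on chromosome 1 at 164931644 to 164935527 on the minus strand. The 3 CC chemokine genes lie close together on chromosome 11, with *Ccl5* (ENSMUSG00000035042.2) at 83525778 to 83530518 and *Ccl3* (ENSMUSG00000000982.5) at 83647844 to 83649355, both on the minus strand, and *Ccl4* (ENSMUSG00000018930.3) at 83662584 to 83664683 on the plus strand. GENCODE M21 gives each gene 3 exons in its coding transcript. The longest stretch that transcripts of any pair of the 4 share is 13 bases, so reads of one would rarely be taken for another.

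The miRNA that was over-expressed is shown first, because its seed is what could pair with the chemokine RNAs. Mature miR-155-5p (RefSeq, GRCm38.p6, chromosome 16, 84714143 to 84714165, plus strand) is printed 5′ to 3′ with bases 2 to 8, the seed, in capitals.
mmu-miR-155-5p: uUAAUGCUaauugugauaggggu
The seed pairs with AGCATTA in a transcript, or AGCATTAA with the A opposite base 1. Neither these letters nor the shorter GCATTA occurred in the annotated 3′ UTR of *Ccl3* (409 bases), *Ccl4* (302 bases), *Ccl5* (199 bases) or *Xcl1* (141 bases), read on the transcript strand only. Among 9805 3′ UTRs of 141 to 409 bases, 1.48% held AGCATTA, 0.622% AGCATTAA and 3.75% GCATTA. The AU-rich letters ATTTA, which ZFP36-family proteins can bind, occurred 5 times in the 3′ UTR of *Ccl3*, 2 times in that of *Ccl4*, 1 time in that of *Xcl1* and 0 times in that of *Ccl5*, while 30.1% of 3′ UTRs of 141 to 409 bases held them at least 1 time. Neither ATTTA nor the seed letters contain the other. The stretch of the *Ccl3* 3′ UTR (bases 159 to 187, chromosome 11) in which ATTTA follows ATTTA directly, and the end of the *Xcl1* 3′ UTR (bases 127 to 141, chromosome 1), are shown with ATTTA in capitals.
Ccl3 3′ UTR: ATTTAATTTAatcctattggtttaatact
Xcl1 3′ UTR: ATTTAttattgatga

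RefSeq promoters matched 2 of the 4 genes, *Xcl1* and *Ccl3*, and are shown because the factors that could bind there are among the genes described below. The 250 bases before each start are printed 5′ to 3′ on the gene's strand (GRCm38.p6), with the RUNX letters TGTGGT, or ACCACA on the other strand, in capitals.
Xcl1, chr1:164935523-164935772, minus strand: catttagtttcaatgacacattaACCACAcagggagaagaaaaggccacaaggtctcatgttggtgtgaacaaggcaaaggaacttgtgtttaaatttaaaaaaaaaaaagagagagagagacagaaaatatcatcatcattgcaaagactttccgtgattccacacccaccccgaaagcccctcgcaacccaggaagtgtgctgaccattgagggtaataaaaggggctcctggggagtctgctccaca
Ccl3, chr11:83649379-83649628, minus strand: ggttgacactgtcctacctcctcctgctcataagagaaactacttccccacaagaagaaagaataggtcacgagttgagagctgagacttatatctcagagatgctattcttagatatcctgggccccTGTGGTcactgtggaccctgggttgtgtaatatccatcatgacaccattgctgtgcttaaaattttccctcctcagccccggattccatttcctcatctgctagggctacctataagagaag
Each promoter held 1 RUNX match, starting 227 bases before the start in *Xcl1* and 122 bases before it in *Ccl3*, as 14.0% of 32851 promoters of the same length did on either strand. TGACTCA (AP-1, in 4.46% of promoters), TGACGTCA (CRE, 1.55%), AGGTGTGA (T-box, 1.12%), GGGACTTTC (NF-kB, 0.289%) and GGGAATTTC (NF-kB, 0.234%) were searched on both strands and were in neither window. The AP-1 and CRE motifs both open with TGAC, and no motif contains another. A match is a description of letters and not evidence of binding, and no match says only that the letters are not in this window.

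The libraries held 12819476 to 20518257 counts. Levels are given as TMM-normalized CPM, counts scaled to a common library size with the trimmed-mean factors of edgeR. *Mir155hg*, the host transcript of miR-155, lay between 95.2 and 143.9 CPM in the 6 miR-155KI libraries and between 9.65 and 13.7 CPM in the 6 WT libraries. The 11 T and *i*NKT cell markers were above 0 in every library, and *Klrb1c*, which encodes NK1.1, lay between 358 and 774 CPM in NK1.1+ libraries and between 36.7 and 79.9 CPM in NK1.1- libraries. WT replicates 2 and 3 of both pools had a log2 ratio of Y-linked to *Xist* RNA between -3.56 and -3.04, while WT replicate 1 and all miR-155KI libraries lay between 2.33 and 4.65, so sex-linked RNA is partly confounded with genotype. Neither the labels nor the paper tie a library to a mouse. The paper states that independent replicates were pooled, and the p-values therefore measure only how these libraries vary, which may be technical in part. In sorted bulk samples, fewer cells that make a chemokine and less of its RNA per cell cannot be told apart.

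*Xcl1* was the most abundant of the 4 per length in every group, followed by *Ccl5*, *Ccl4* and *Ccl3*. Per kb of exon, *Xcl1* had 693 ± 170.3 CPM in miR-155KI NK1.1+, 886 ± 26.5 CPM in WT NK1.1+, 71.5 ± 10.7 CPM in miR-155KI NK1.1- and 133 ± 22.4 CPM in WT NK1.1- cells (n = 3 each, with SD). *Ccl5* had 206 ± 72.0, 323 ± 29.1, 23.9 ± 3.23 and 44.2 ± 7.04 CPM per kb in the same 4 groups. *Ccl4* had 23.4 ± 8.37, 35.6 ± 14.2, 2.65 ± 0.674 and 5.42 ± 1.92 CPM per kb in them, and the mean of *Ccl3* was at most 2.51 CPM per kb, in WT NK1.1+ cells. All 4 genes thus had the same order of group means, highest in WT NK1.1+, next in miR-155KI NK1.1+, next in WT NK1.1- and lowest in the miR-155KI NK1.1- pool. Between neighbours in that order, the libraries of *Xcl1* and *Ccl5* overlapped at no step. Those of *Ccl4* overlapped between miR-155KI NK1.1+ and WT NK1.1+ cells, and those of *Ccl3* overlapped at every step. Among all genes that passed the filter over 12 libraries, 16.5% did not overlap between the genotypes of the NK1.1+ pool. For the NK1.1- pool this share was 22.6%. For the step from miR-155KI NK1.1+ to WT NK1.1- cells the share was not computed.

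**Figure D1:**
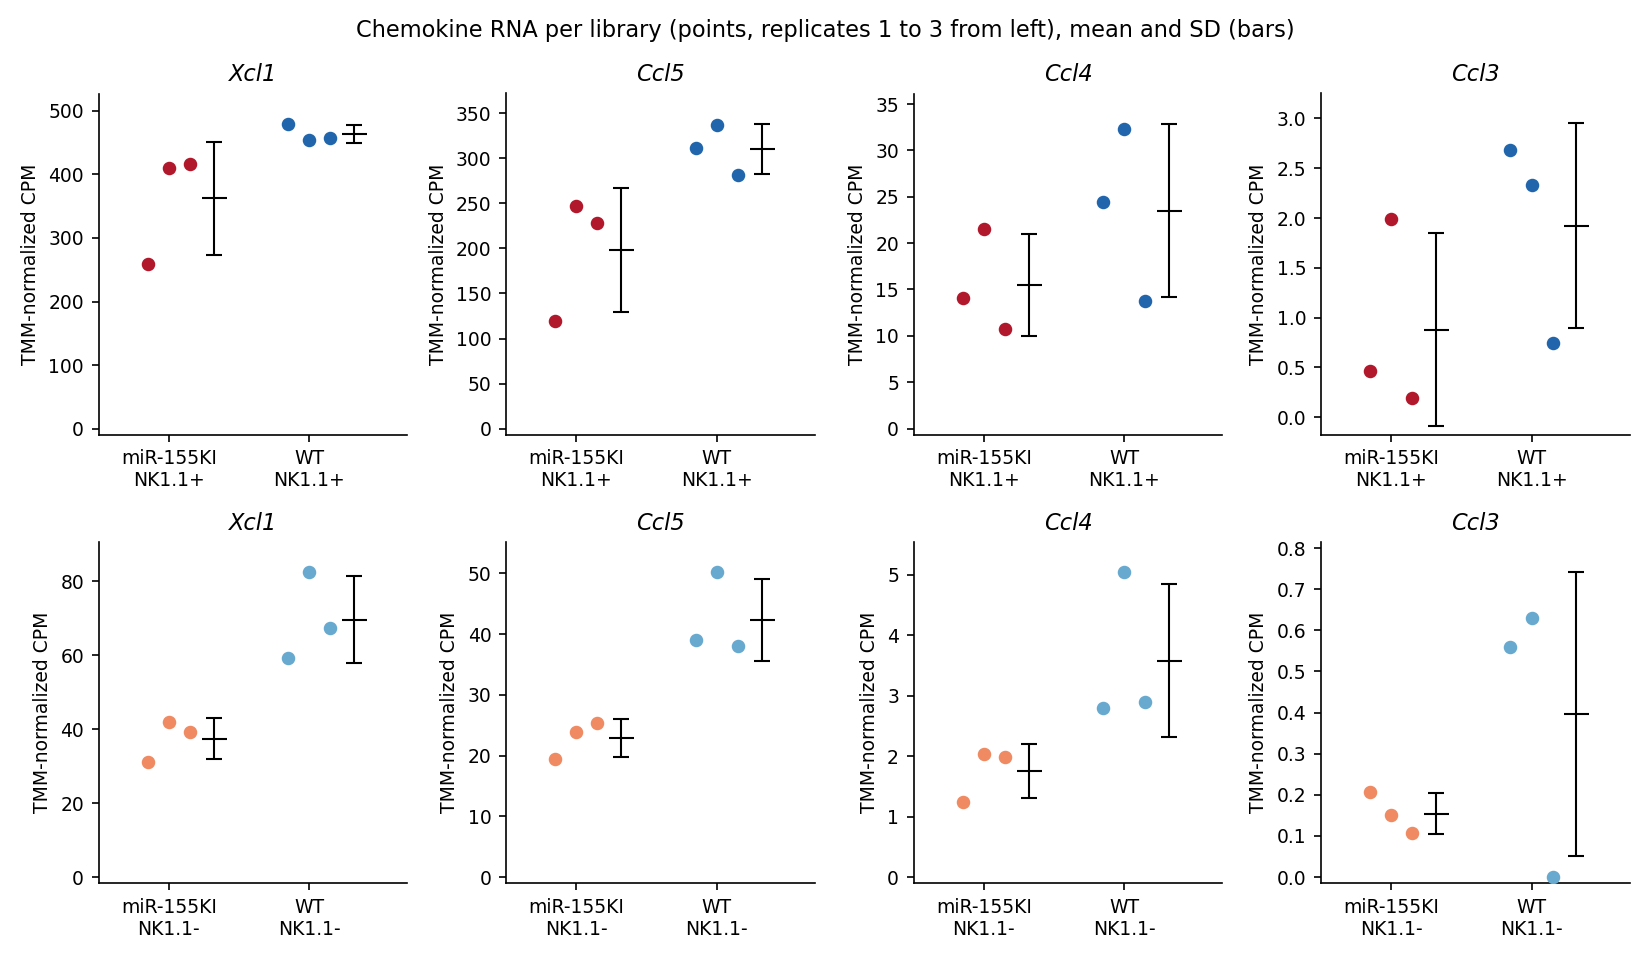
TMM-normalized CPM (y axis, a linear scale of its own in each panel) of the 4 chemokine genes in NK1.1+ (top) and NK1.1- cells (bottom). Points are libraries, and bars beside them are mean and SD of 3 libraries. *Xcl1* and *Ccl5* of miR-155KI cells lie below those of WT cells in both pools, and replicate 1 is the low miR-155KI NK1.1+ library at 259.5 and 119 CPM.

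The 4 genes made up nearly all chemokine ligand RNA of these cells when levels were taken per kb. Of the CPM per kb summed over 35 ligand genes, the 4 took 96.7% to 98.2% in miR-155KI NK1.1+, 98.5% to 99.0% in WT NK1.1+, 88.2% to 94.1% in miR-155KI NK1.1- and 91.7% to 93.8% in WT NK1.1- libraries. *Xcl1* alone took 64.1% to 74.7% over all 12 libraries, and *Ccl5* took 18.7% to 27.2%. The next ligand was *Cxcl10*, an interferon-induced ligand of CXCR3, whose mean of 10.7 CPM per kb in miR-155KI NK1.1+ and 12.0 in WT NK1.1+ cells lay below that of *Ccl4*, and whose mean of 2.93 in miR-155KI NK1.1- and 6.90 in WT NK1.1- cells lay above it.

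**Figure D2:**
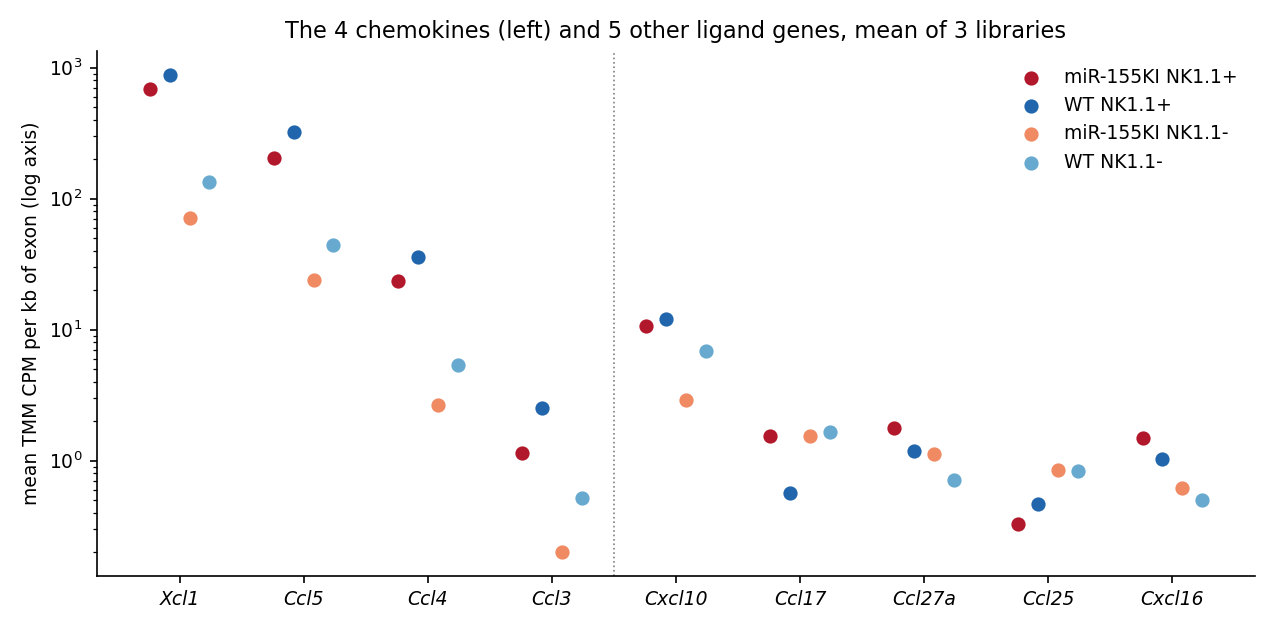
Mean TMM CPM per kb of exon (y axis, log scale) of the 4 chemokines and of 5 other ligand genes in the 4 groups, each point a mean of 3 libraries. *Xcl1* stands highest in each group, from 71.5 to 886 CPM per kb, and of the others shown only *Cxcl10* reaches the levels of *Ccl4* per kb.

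In NK1.1- cells, *Xcl1* and *Ccl5* fell in miR-155KI cells, each to about 0.53 of the WT level. *Xcl1* had 31.1, 41.8 and 39.2 CPM in miR-155KI NK1.1- libraries, against 59.2, 82.3 and 67.3 CPM in WT NK1.1- libraries. Every miR-155KI library lay below every WT library, and WT replicate 2 was the high one. The log2 fold change was -0.92 (standard error, SE, 0.16, 0.528 of the WT level), and the quasi-likelihood test of edgeR gave adjusted p = 0.00595.

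*Ccl5* had 19.4, 23.9 and 25.4 CPM in miR-155KI NK1.1- libraries, against 39.0, 50.2 and 38.0 CPM in WT NK1.1- libraries. The groups did not overlap, and WT replicate 2 was again high. Its log2 fold change was -0.91 (SE 0.17, 0.532 of the WT level, adjusted p = 0.00963 from edgeR).

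*Ccl4* had 1.24, 2.03 and 1.98 CPM in miR-155KI NK1.1- cells, from 24, 27 and 37 counts, against 2.79, 5.03 and 2.90 CPM in WT NK1.1- libraries, from 40, 88 and 52 counts. The groups did not overlap, but the log2 fold change of -1.06 (SE 0.41) missed the threshold, with adjusted p = 0.182 from edgeR. *Ccl3* was close to the limit of detection at this depth. It had 4, 2 and 2 counts in miR-155KI NK1.1- cells (0.206, 0.150 and 0.107 CPM), against 8, 11 and 0 counts in WT NK1.1- cells (0.559, 0.629 and 0 CPM), where the count of 0 allows up to 0.167 CPM by 3 counts. The filter on low counts removed it from this comparison, so that 3 of the 4 genes were tested.

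Of these 3 genes, 2 were called lower and 0 higher, at an adjusted p under 0.05. Of the 13304 genes tested with edgeR in NK1.1- cells, 3.44% were called in either direction and 1.5% were called lower. The median log2 fold change was -0.92 over the 3 genes and -0.00 over all genes tested. Non-overlapping libraries were seen in 3 of the 4 chemokine genes, and in 22.6% of the genes that passed the filter over all 12 libraries.

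The call of *Xcl1* held in each of the 6 fits that left out 1 library, with log2 fold changes between -1.03 and -0.76. *Ccl5* lost its call without WT NK1.1- replicate 2 (-0.75, adjusted p = 0.0605 from edgeR) and without miR-155KI NK1.1- replicate 1 (-0.81, adjusted p = 0.0654 from edgeR). Both calls were lost, with the direction kept, when the ratio of Y-linked to *Xist* RNA was a covariate (*Xcl1* -0.65, adjusted p = 0.192, and *Ccl5* -0.74, adjusted p = 0.195, from edgeR). WT replicate 1, the WT library like the miR-155KI libraries in that ratio, lay above all 3 miR-155KI libraries for both genes. The part that sex-linked differences have in the fall was not tested beyond these fits.

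In NK1.1+ cells the means of all 4 genes were lower in miR-155KI than in WT cells, but none passed the test. *Xcl1* had 259.5, 409.9 and 417 CPM in miR-155KI NK1.1+ libraries, against 479.5, 454 and 457 CPM in WT NK1.1+ libraries. Its groups did not overlap, and miR-155KI replicate 1 was far below the other libraries. The log2 fold change was -0.37 (SE 0.17, adjusted p = 0.436 from edgeR), and it was -0.16 without miR-155KI replicate 1.

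*Ccl5* had 119, 247 and 229 CPM in miR-155KI NK1.1+ libraries, against 312, 337 and 281.5 CPM in WT NK1.1+ libraries. These groups did not overlap either, and the same miR-155KI replicate was low. The log2 fold change was -0.66 (SE 0.23, unadjusted p = 0.0155, adjusted p = 0.315 from edgeR), and it was -0.38 without miR-155KI replicate 1.

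*Ccl4* had 14.1, 21.5 and 10.7 CPM in miR-155KI NK1.1+ libraries, against 24.4, 32.4 and 13.7 CPM in WT NK1.1+ libraries. Its groups overlapped, and the log2 fold change was -0.62 (SE 0.37, adjusted p = 0.547 from edgeR). *Ccl3* had 0.464, 1.99 and 0.189 CPM in miR-155KI NK1.1+ cells (7, 34 and 3 counts), against 2.69, 2.34 and 0.751 CPM in WT NK1.1+ cells (52, 40 and 15 counts). Its groups overlapped as well, with a log2 fold change of -1.13 (SE 0.95, adjusted p = 0.685 from edgeR), which was -2.55 without miR-155KI replicate 2 and -0.64 without miR-155KI replicate 3.

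Thus 0 of 4 genes were called in NK1.1+ cells by edgeR, DESeq2 or limma-voom, and 1 of them, *Ccl5*, had an unadjusted p under 0.05 with edgeR. Of 12991 genes tested there, 0.0231% were called in either direction. The spread within miR-155KI NK1.1+ cells was wide, with an SD of 89.1 CPM for *Xcl1* in miR-155KI NK1.1+ against 13.9 CPM in WT NK1.1+ libraries. Of all genes that passed the filter over 12 libraries, 16.5% did not overlap between the genotypes here, as *Xcl1* and *Ccl5* did not. A p over the threshold does not show equal levels in the genotypes.

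Markers of other cells moved with the miR-155KI NK1.1+ libraries. The 14 macrophage and myeloid markers summed to 679, 1366 and 599 CPM in miR-155KI NK1.1+ libraries, against 394, 298.5 and 275 CPM in WT NK1.1+ libraries. Of the 12 tested, edgeR called 2 higher and 0 lower, while 0.0231% of all genes tested there were called higher. All 12 had a positive log2 fold change (median 3.65). *C1qa*, a complement gene of macrophages, lay at 18.6 to 68.9 CPM in miR-155KI NK1.1+ and 1.52 to 2.58 CPM in WT NK1.1+ libraries. miR-155KI NK1.1+ replicate 1, the low library for *Xcl1* and *Ccl5*, also had the highest sums of double-positive thymocyte markers (216 CPM, against 10.4 to 67.4 CPM in the other 11 libraries) and of neutrophil and mast cell markers (438 CPM, against 6.62 to 52.9 CPM). Its *Trav11*, the invariant TCR α-chain V segment, was at 363 CPM, below the 553 and 581 CPM of the other miR-155KI NK1.1+ libraries and the 480.0 to 540.2 CPM of WT NK1.1+ libraries. The 6 markers of NK and innate CD8 T cells summed to 122 to 146 CPM in miR-155KI NK1.1+ and 112 to 169 CPM in WT NK1.1+ libraries, with *Ncr1*, which encodes NKp46, at 6.30 to 8.43 CPM in miR-155KI NK1.1+ and 0.751 to 2.92 CPM in WT NK1.1+ libraries. edgeR called 0 of the 5 tested genes of that list, and 3 had an unadjusted p under 0.05. Of the 5, 3 had a positive and 2 a negative log2 fold change, with a median of 1.93. *Ncr1* was at 2.29, and the 2 negative ones were *Klre1* at -0.33 and *Klra8* at -0.32. *Cd8a*, also of that list, lay at 0.7606 to 24.67 CPM in miR-155KI NK1.1+ and 0.7747 to 1.502 CPM in WT NK1.1+ libraries, highest in miR-155KI replicate 1. *Cd8b1* lay at 2.574 to 18.11 CPM in miR-155KI NK1.1+ and 2.253 to 2.841 CPM in WT NK1.1+ libraries. Of the myeloid markers, 0 to 2 of 14 were at 0 in a miR-155KI NK1.1+ library and 0 to 1 of 14 in a WT NK1.1+ library. In NK1.1- cells the myeloid sums were 276 to 329 CPM in miR-155KI and 189 to 357 CPM in WT libraries, and the NK and innate CD8 T cell sums were 13.3 to 28.5 CPM in miR-155KI and 12.4 to 49.7 CPM in WT libraries. Single genes held large parts of these sums. In miR-155KI NK1.1+, WT NK1.1+, miR-155KI NK1.1- and WT NK1.1- cells, *Ctss* averaged 128, 96.8, 190 and 142.5 CPM. *Fcer1g*, also of the myeloid list, averaged 265, 187, 30.4 and 26.7 CPM in them. *Klre1*, of the NK and innate CD8 T cell list, averaged 100 CPM in miR-155KI NK1.1+ and 125 CPM in WT NK1.1+ cells.

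Other marker lists moved with genotype in NK1.1- cells, where *Xcl1* and *Ccl5* were called. Of all genes tested there, 1.93% were called higher and 1.5% lower. The 5 γδ T cell markers summed to 814.8, 921.5 and 679 CPM in miR-155KI NK1.1- libraries, against 604.6, 494.9 and 375 CPM in WT NK1.1- libraries, with no overlap, and 0 to 1 of 5 were at 0 in each of these 6 libraries. Of the 4 tested, edgeR called *Tcrg-C4*, a TCR γ constant gene, higher (log2 fold change 1.00, SE 0.16, adjusted p = 0.00496 from edgeR). *Trdc*, the TCR δ constant gene and the defining marker of these cells, was at 0.589 to 1.29 CPM in miR-155KI and 0.558 to 1.96 CPM in WT NK1.1- libraries. Double-positive thymocyte markers summed to 10.4 to 34.7 CPM in miR-155KI and 28.7 to 67.4 CPM in WT libraries, with 1 of 6 tested called lower. The 6 thymic epithelium markers summed to 1.39 to 3.503 CPM in miR-155KI and 4.69 to 5.97 CPM in WT libraries, with 0 of 3 called by edgeR and 0 at an unadjusted p under 0.05. In NK1.1+ cells the γδ sums were 680 to 782 CPM in miR-155KI and 405 to 713 CPM in WT libraries. The part of all these cells in the chemokine levels was not tested.

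The difference between the pools in the genotype effect was also tested over all 12 libraries. It was 0.54 (SE 0.24, unadjusted p = 0.0412, adjusted p = 0.601 from edgeR) on the log2 scale for *Xcl1*, 0.24 (0.30) for *Ccl5*, 0.44 (0.54) for *Ccl4* and 0.19 (1.31) for *Ccl3*, with adjusted p between 0.601 and 0.987 from edgeR for the 4 genes. The call of *Xcl1* and *Ccl5* in NK1.1- cells and its absence in NK1.1+ cells is thus not a shown difference between the pools. edgeR, DESeq2 and limma-voom called 0 of the 4 genes, 1 had an unadjusted p under 0.05 with edgeR, and 0.0278% of 14401 genes tested were called. The sign for *Ccl3* turned negative in some alternative fits.

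**Figure D3:**
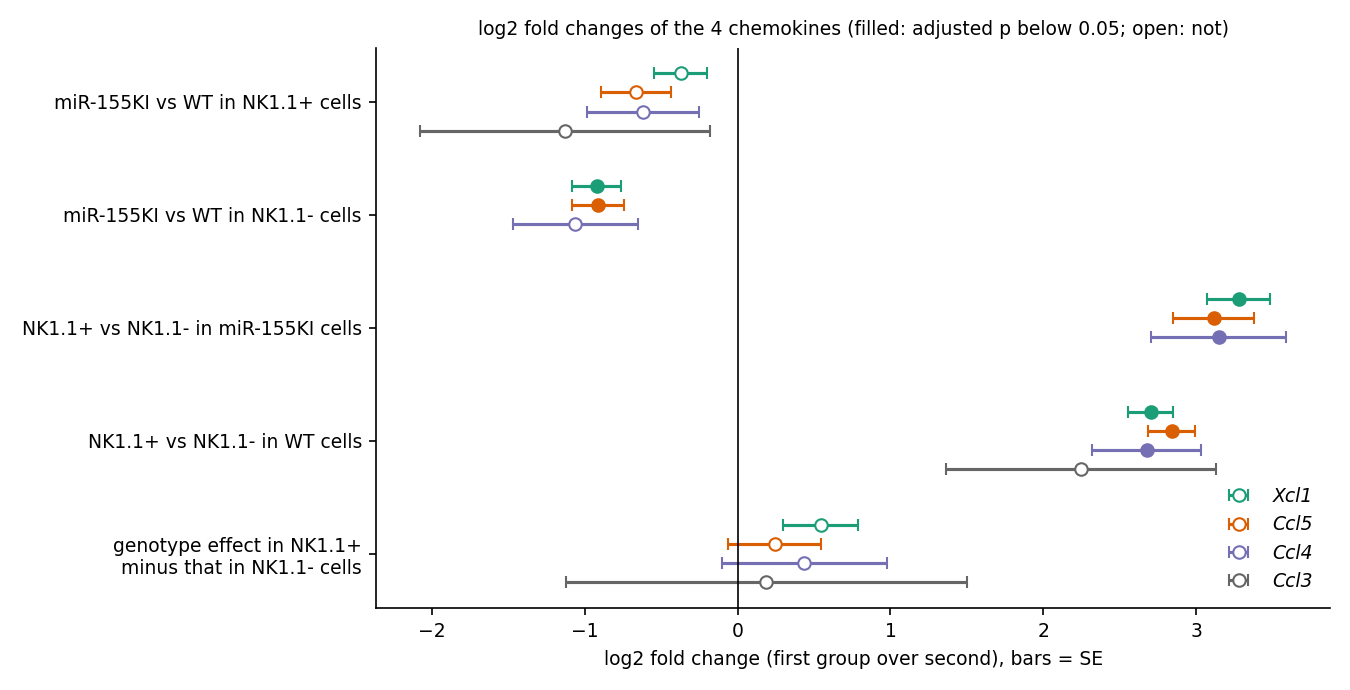
log2 fold change (x axis) of the 4 chemokine genes in each comparison (y axis), with bars of 1 SE, filled where the adjusted p from edgeR is under 0.05. *Xcl1* and *Ccl5* are filled at -0.92 and -0.91 in NK1.1- cells, and *Xcl1*, *Ccl5* and *Ccl4* are filled between 2.68 and 3.28 for NK1.1+ against NK1.1- cells, while *Ccl3* was tested in 3 of the 5 comparisons and is open in each.

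Fold changes were larger between pools than between genotypes for *Xcl1*, *Ccl5* and *Ccl4*, which were all higher in NK1.1+ cells. In WT cells, *Xcl1* was 6.51-fold higher in NK1.1+ than in NK1.1- cells (log2 fold change 2.70, SE 0.15, adjusted p = 4.47e-06 from edgeR), and *Ccl5* was 7.15-fold higher (2.84, SE 0.15, adjusted p = 4.47e-06 from edgeR). By p-value they stood at ranks 3 and 2 among 13555 genes tested. *Ccl4* was 6.39-fold higher (2.68, SE 0.36, adjusted p = 0.000404 from edgeR). *Ccl3* had a log2 fold change of 2.25 (SE 0.88) and missed the threshold (adjusted p = 0.0975 from edgeR). With the replicate number as a block, which takes libraries of the same number as pairs, it was 2.47 with adjusted p = 0.0134 from edgeR. The libraries of all 4 genes did not overlap between the WT pools, where 37.6% of all genes did not.

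In miR-155KI cells, *Xcl1* was 9.70-fold higher in NK1.1+ than in NK1.1- cells (log2 fold change 3.28, SE 0.21, adjusted p = 1.48e-05 from edgeR). *Ccl5* was 8.66-fold higher (3.11, SE 0.26, adjusted p = 7.2e-05 from edgeR) and *Ccl4* 8.85-fold higher (3.15, SE 0.44, adjusted p = 0.00146 from edgeR). *Ccl3* was removed by the filter on low counts, and its libraries overlapped. Those of the other 3 genes did not overlap, as was the case for 32.6% of all genes.

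In all, 3 of 3 genes tested were called higher in NK1.1+ cells of miR-155KI mice and 3 of 4 in those of WT mice, where 7.92% of all 12942 genes tested in miR-155KI and 9.89% of those in WT mice were called higher. The median log2 fold change over the tested chemokine genes was 3.15 in miR-155KI and 2.69 in WT cells, against 0.03 in miR-155KI and 0.01 in WT cells over all genes. The calls of *Xcl1*, *Ccl5* and *Ccl4* held in all 17 alternative fits of each pool comparison, leaving out each library included. The sums of NK and innate CD8 T cell markers also differed between the pools, at 112 to 169 CPM in NK1.1+ and 12.4 to 49.7 CPM in NK1.1- libraries. Myeloid markers differed between the pools of miR-155KI mice, where 6 of 12 tested were called higher and 1 lower by edgeR (median log2 fold change 2.94, sums of 599 to 1366 CPM in NK1.1+ and 276 to 329 CPM in NK1.1- libraries), while 1 of 10 was called higher and 1 lower between those of WT mice (median -0.86, sums of 275 to 394 CPM in NK1.1+ and 189 to 357 CPM in NK1.1- libraries). The part of either list in the pool differences of the chemokines was not tested.

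*Ccl5* and *Ccl4* were set against *Xcl1* within each library. For each 100 *Xcl1* counts there were 45.9 to 60.2 *Ccl5* counts in miR-155KI NK1.1+, 61.6 to 74.2 in WT NK1.1+, 57.2 to 64.7 in miR-155KI NK1.1- and 56.5 to 65.9 in WT NK1.1- libraries. There were 2.57 to 5.44 *Ccl4* counts per 100 *Xcl1* counts in miR-155KI NK1.1+, 3.00 to 7.12 in WT NK1.1+, 3.97 to 5.05 in miR-155KI NK1.1- and 4.31 to 6.12 in WT NK1.1- libraries. The miR-155KI and WT ranges of the *Ccl5* ratio overlapped in NK1.1- cells. In NK1.1+ cells they did not, but their edges of 60.2 and 61.6 lay close, and the lowest value, 45.9, was that of miR-155KI replicate 1. The ratios were not tested between genotypes, and the share of other gene pairs that do not overlap was not computed.

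Genes with a pattern like that of each chemokine were ranked by Pearson's r of log2(CPM + 1) over the 12 libraries, among 9274 genes whose mean reached 10 CPM in at least 1 group. The r values are a description, since all share libraries and the step between pools. For *Xcl1* the leading genes were *Il2rb* (r = 0.998), which encodes the β-chain of the IL-2 and IL-15 receptors, *Gzmb*, encoding granzyme B (0.995), *Rgs1*, a regulator of G protein signalling (0.993), and *Cd7* (0.992). For *Ccl5* they were *Il2rb* (0.994), *Gzmb* (0.993), *Itga1*, encoding the integrin chain CD49a (0.988), and *Cd101* (0.987). For *Ccl4* they were *Gzmb* (0.977), *Gzma*, encoding granzyme A (0.975), *Gimap5* (0.974) and *Nod1* (0.972). *Xcl1* and *Ccl5* had r = 0.994 with each other, and 0.918 after each group's mean was taken off. Both values include miR-155KI NK1.1+ replicate 1, which was low for both genes, and were not computed without it. For *Ccl3*, which had 0 to 52 counts per library, the values were lower, with *Azi2* (0.911), *Rnf169* (0.897), *Pak2* (0.886) and *Tmem154* (0.882) leading.

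**Figure D4:**
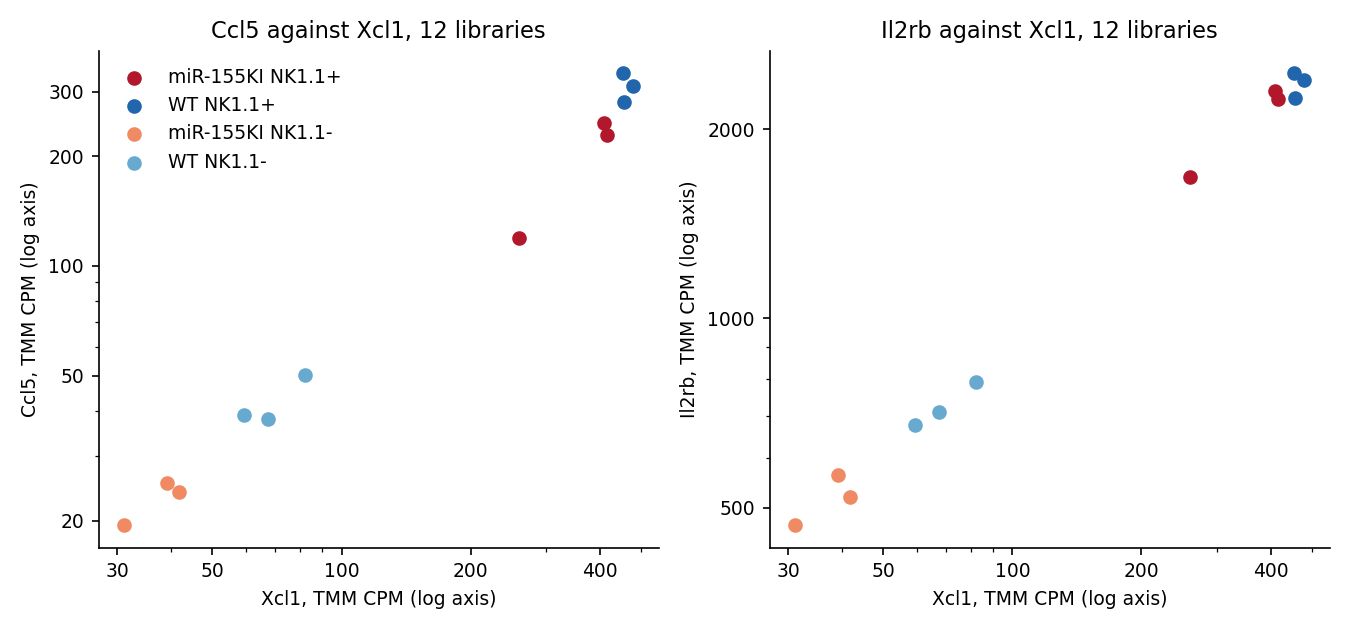
*Ccl5* (left) and *Il2rb* (right) against *Xcl1* in the 12 libraries, in TMM CPM on log axes, with a colour per group. Both are higher where *Xcl1* is higher (r = 0.994 and 0.998), and miR-155KI NK1.1+ replicate 1 sits below the other NK1.1+ libraries on both.

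Many effector genes of *i*NKT1 and NK cells were also lower in miR-155KI NK1.1- cells. Of 16 such genes, all tested, 9 were called lower and 0 higher in miR-155KI than in WT NK1.1- cells, and the median log2 fold change of the 16 was -0.68. Of all genes tested there, 1.5% were called lower. The 4 with the smallest p were *Cxcr3*, a chemokine receptor of type 1 effector cells (-1.21, SE 0.15), *Tbx21*, which encodes T-bet (-1.23, 0.15), *Ctsw*, a cathepsin of cytotoxic cells (-0.56, 0.10), and *Ifng*, encoding IFN-γ (-1.38, 0.23), with adjusted p between 0.000743 and 0.00898 from edgeR. *Klrb1c*, whose product NK1.1 set the gate, also fell in these NK1.1- cells, at 36.7 to 50.6 CPM in miR-155KI and 59.5 to 79.9 CPM in WT libraries (-0.71, SE 0.15, adjusted p = 0.0229 from edgeR). How far NK1.1 RNA within the gate bears on the fall of the chemokines was not tested. In NK1.1+ cells, edgeR called 0 of the 16, 3 had an unadjusted p under 0.05, and the median was -0.11. Between pools, 15 of the 16 were called higher in NK1.1+ than in NK1.1- cells of both miR-155KI (median 3.19) and WT mice (median 2.49). Of all genes tested, 7.92% were called higher between the miR-155KI pools and 9.89% between the WT pools.

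Of 21 regulators of chemokine RNA, a list of transcription factors of effector T cells and of proteins that bind AU-rich RNA, 20 were tested. In NK1.1- cells 3 were lower in miR-155KI than in WT and 0 were higher (median -0.51), namely *Zfp683*, which encodes Hobit (-1.22, SE 0.14, adjusted p = 0.00039 from edgeR), *Tbx21*, which the effector list also holds, and *Runx3*, a factor of cytotoxic lymphocytes (-1.14, SE 0.18, adjusted p = 0.00342 from edgeR). Of all genes tested there, 1.5% were called lower. *Zfp36l2*, of the family that binds ATTTA, had -0.61 (SE 0.17, adjusted p = 0.0823 from edgeR), and *Klf13*, a factor known for binding the human *CCL5* promoter, had -0.29 (SE 0.12, adjusted p = 0.205 from edgeR). In NK1.1+ cells edgeR called 0 of the 20, 10 had an unadjusted p under 0.05, and the median was -0.39. Between pools, 12 were higher and 1 lower in NK1.1+ than in NK1.1- cells of miR-155KI mice, and 10 were higher and 1 lower in those of WT mice, with *Zfp683* at 2.75 in miR-155KI and 1.64 in WT cells, *Tbx21* at 2.81 in miR-155KI and 1.65 in WT cells and *Runx3* at 2.41 in miR-155KI and 1.63 in WT cells, all called by edgeR. Of all genes tested, 7.92% were called higher and 6.15% lower between the miR-155KI pools. Between the WT pools, 9.89% were called higher and 10.9% lower.

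The TCR-induced and cytokine genes had no common direction. In NK1.1- cells, 2 of 13 tested were higher in miR-155KI than in WT, *Tnfsf11*, encoding RANKL (0.96, SE 0.13, adjusted p = 0.00104 from edgeR), and *Egr2* (0.69, SE 0.16, adjusted p = 0.0387 from edgeR), and 1 was lower, *Ifng*. Of all genes tested there, 1.93% were called higher and 1.5% lower. In NK1.1+ cells edgeR called 0 of 15, 5 had an unadjusted p under 0.05, and *Nr4a2* had -2.16 (SE 0.58, adjusted p = 0.269 from edgeR). Between pools, 5 of 14 were higher and 3 lower in NK1.1+ than in NK1.1- cells of miR-155KI mice, and 4 of 14 were higher and 3 lower in those of WT mice. Of all genes tested, 7.92% were called higher and 6.15% lower between the miR-155KI pools. Between the WT pools, 9.89% were called higher and 10.9% lower.

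**Figure D5:**
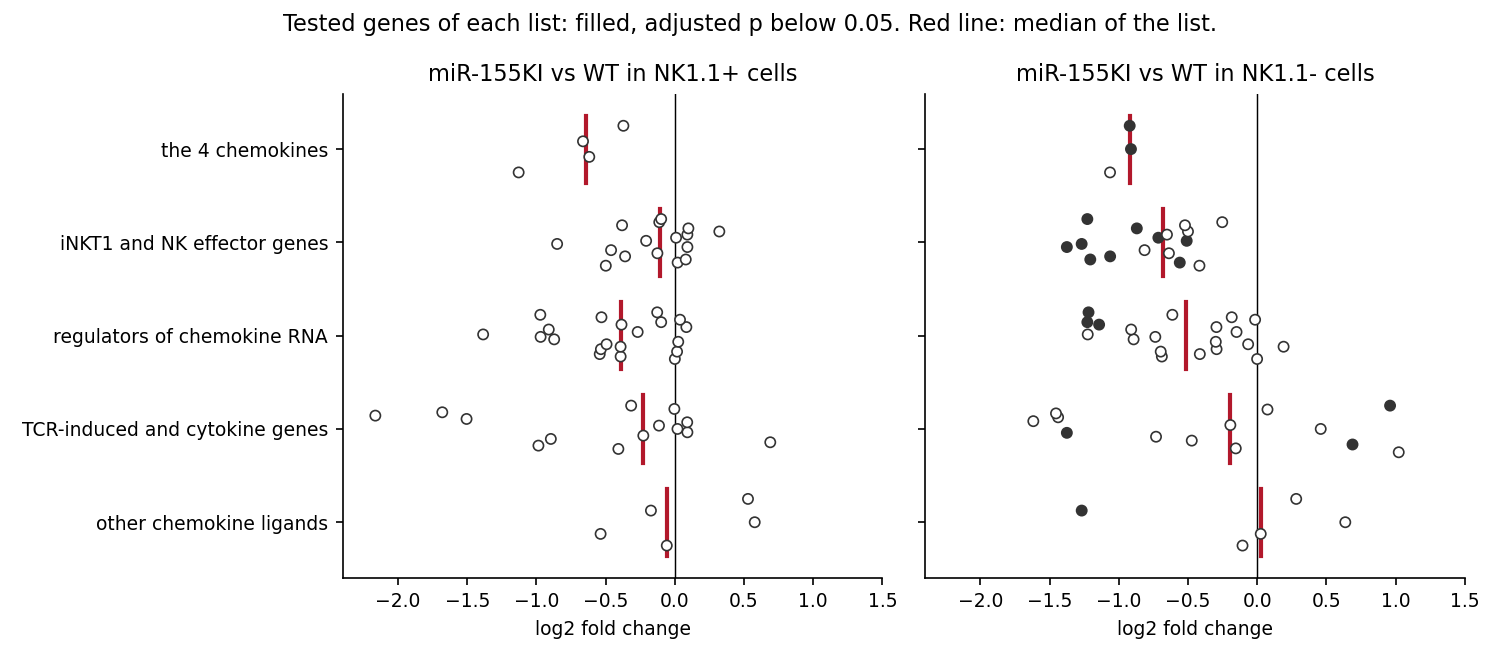
log2 fold change of miR-155KI over WT (x axis) for the tested genes of 5 lists in NK1.1+ (left) and NK1.1- cells (right), filled where the adjusted p from edgeR is under 0.05, with each list's median as a red line. Values beyond the drawn x range do not appear, while the medians cover all tested genes. In NK1.1- cells the medians are -0.92 for the chemokines, -0.68 for the effector genes and -0.51 for the regulators, and in NK1.1+ cells no gene of these lists is filled.

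Of the chemokine receptor genes, *Ccrl2*, *Ccr4* and *Xcr1* are described, and none was called between genotypes by edgeR. In both pools *Ccrl2* had an unadjusted p under 0.05, which was 0.0216 in the NK1.1+ and 0.00248 in the NK1.1- pool. *Ccrl2*, an atypical chemokine receptor, was higher in NK1.1+ than in NK1.1- cells (log2 fold change 1.98 in miR-155KI and 1.61 in WT), while *Ccr4*, a receptor of *i*NKT2-type cells whose main ligands are CCL17 and CCL22, was lower in them (-3.10 in miR-155KI and -2.56 in WT), all with adjusted p under 0.05 from edgeR. *Xcr1*, the receptor of XCL1, averaged 2.67 ± 0.668 CPM in miR-155KI NK1.1+, 2.73 ± 0.927 CPM in WT NK1.1+, 3.38 ± 1.22 CPM in miR-155KI NK1.1- and 5.13 ± 0.754 CPM in WT NK1.1- cells (n = 3 each, with SD) and was not called in any comparison.

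Of 31 other chemokine ligand genes, 5 passed the filter on low counts in each comparison within a pool or genotype. In NK1.1- cells *Cxcl10* alone was called, at 5.46 to 8.73 CPM in miR-155KI and 11.3 to 20.9 CPM in WT libraries (log2 fold change -1.27, SE 0.28, adjusted p = 0.0286 from edgeR), and the median of the 5 was 0.03. Of all genes tested there, 1.5% were called lower. In NK1.1+ cells edgeR called 0 of 5, and 0 had an unadjusted p under 0.05. Between pools, *Cxcl10* was higher in NK1.1+ than in NK1.1- cells of miR-155KI mice (1.87, SE 0.33, adjusted p = 0.00491 from edgeR) and was not called in WT mice (0.76, SE 0.32, adjusted p = 0.126 from edgeR).

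A predicted gene on the plus strand, *Gm20743*, overlaps *Xcl1* and is named after its values were seen. It spans 164863133 to 164936775 of chromosome 1 (GRCm38), and its exon at 164933929 to 164935565 covers all 98 bases of the first *Xcl1* exon. It had 52.3, 52.8 and 88.0 CPM in miR-155KI NK1.1+, 59.4, 31.8 and 25.6 CPM in WT NK1.1+, 3.04, 5.57 and 4.02 CPM in miR-155KI NK1.1- and 6.84, 7.21 and 4.41 CPM in WT NK1.1- libraries. It was higher in NK1.1+ than in NK1.1- cells of both genotypes (log2 fold change 3.94 in miR-155KI, adjusted p = 5.02e-05, and 2.63 in WT, adjusted p = 0.000613, from edgeR). Between genotypes its log2 fold change was 0.71 (adjusted p = 0.405 from edgeR) in NK1.1+ cells, where *Xcl1* had -0.37, and -0.58 (adjusted p = 0.385 from edgeR) in NK1.1- cells. The sources used here do not state whether counting used strand, and reads over the shared bases cannot be assigned to one strand without it.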

How the data were processed

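RNA-seq was available for 12 libraries of sorted thymic *i*NKT cells, grouped by their labels. In the series, the authors deposited raw counts per gene and a table of normalized signal, named CPM, in which each value is the count times 1 factor per library. Per the labels, reads were demultiplexed with bcl2fastq 2.17.1.14 and the build was GRCm38 (mm10). For the aligner and the counting program, the names are not given in the sources used here. For library preparation, the labels name a SMART-Seq kit and the paper a TruSeq kit.

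Counts were analysed in R 4.3.3 with edgeR 4.0.16 (TMM, filterByExpr, robust quasi-likelihood test), each comparison on its 6 libraries and the difference of genotype effects on all 12. Benjamini-Hochberg adjustment covered every gene tested, with a threshold of 0.05. Alternatives were DESeq2 1.42.0, limma 3.58.1 (voom, and log2 of the deposited CPM plus 1 or 0.1), RLE size factors, other filters on low counts, no robust option, the replicate block, a covariate for Y-linked to *Xist* RNA, all 12 libraries in one fit and each library left out. WT replicate 1 as the only control was added after seeing the data. Each script for tests across genes was tested on simulated data. Levels per kb used the length of all annotated exons of a gene in GENCODE M21, with bases shared by exons taken 1 time. Libraries with the same number correlated in their deviations from the group means between the WT pools (r = 0.374, 0.267 and 0.161), and less between the miR-155KI pools (0.134, 0.0915 and 0.0704). WT NK1.1- replicate 2 and WT NK1.1+ replicate 3, of unlike number, had r = 0.15. The pairing is thus not shown for WT replicate 3. Between the genotypes of NK1.1- cells, libraries of the same number had r = 0.0953, 0.204 and 0.0941, and those of unlike number -0.115 to 0.0148. Between the genotypes of NK1.1+ cells, r was -0.0517, 0.0281 and 0.0169 for the same number and -0.083 to 0.0498 for unlike numbers. The cause was not tested.

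The 4 genes were chosen by name, and lists of other genes were fixed by name. Named genes were all 4 chemokines, the 4 genes most like each, and up to 4 of each list by smallest p, while *Klrb1c*, *Klf13*, *Gm20743* and the marker genes were named after their values were seen. Members and lists were chosen with earlier results of these data known. A limit for a count of 0 is 3 counts and covers counting error only. Precision at this depth is low for *Ccl3*. 1 item of the lists is not reported here.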

Additional observations from a re-analysis of the deposited data

How the results depend on the processing

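The calls of *Xcl1*, *Ccl5* and *Ccl4* between pools held under all alternatives, and no alternative turned the direction of *Xcl1*, *Ccl5* or *Ccl4* in any comparison. In NK1.1- cells, 2 of the 4 chemokines were called, against 1 with all 12 libraries in one fit (*Ccl5* -0.89, adjusted p = 0.0769 from edgeR), 0 with the Y-linked to *Xist* covariate, 0 with WT replicate 1 as the only control (*Xcl1* -0.66, adjusted p = 0.182, and *Ccl5* -0.77, adjusted p = 0.142, from edgeR) and 1 to 2 with 1 library left out. The lone control is assumed to vary like the miR-155KI group. *Ccl3* between WT pools passed with DESeq2 (2.29, adjusted p = 0.0266), without a filter (2.28, adjusted p = 0.0111 from edgeR) and with the replicate block (adjusted p = 0.0134 from edgeR). For *Ccl3*, the difference in genotype effect between pools turned negative with limma-voom (-1.21), log2(CPM + 1) (-0.42), log2(CPM + 0.1) (-0.82), the replicate block (-0.72) and 4 of the fits that left out 1 library (-0.14, -0.32, -0.20 and -1.24; range -1.24 to 0.77).

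Over all genes, those called between genotypes in NK1.1- cells numbered 457, against 960 with DESeq2, 1048 without a filter, 737 with the replicate block, 114 with the covariate, 139 with 12 libraries, 157 with WT replicate 1 alone and 186 to 917 with 1 library left out. In NK1.1+ cells they numbered 3, against 316 with DESeq2, 1 with limma-voom, 282 without a filter, 7 with the replicate block, 1 with the covariate, 60 with 12 libraries, 1 with WT replicate 1 alone and 1 to 125 with 1 library left out. Between pools they numbered 1821 in miR-155KI cells (788 to 2542 with 1 library left out) and 2819 in WT cells (4263 with the covariate, 1832 to 3264 with 1 library left out). For the difference in genotype effect they numbered 4, against 139 with DESeq2, 0 with limma-voom, 7 with RLE, 162 without a filter, 10 with at least 10 counts in every library, 23 with the replicate block and 3 to 46 with 1 library left out. The causes were not tested. The replicate block changed no call of a chemokine other than that of *Ccl3*. *Ccl3*, at 0 to 52 counts, is the gene that depth limits.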
